A study of Rattus norvegicus with 6 samples.

Results

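The miR-15, miR-16, miR-195, miR-497, miR-322, and miR-503 family was examined in small RNA libraries from the lens capsules of Sprague Dawley rat pups. Every row of the deposited count table was taken whose name is that of rat miR-15a, miR-15b, miR-16, miR-195, miR-497, miR-322, or miR-503, with both arms, which gave 14 of 910 rows. The control group (WT) held 3 pups given saline, and the Na2SeO3 group (Model) held 3 pups given sodium selenite at 20 μmol/kg, both by subcutaneous injection on days 3, 5, and 7, in pups described as 8 days old at the start, with the lenses taken on day 15. Both groups were of the same strain, the labels name no genetic change in either, and selenite given to suckling rats is a standard way to produce a lens opacity. Total RNA of the capsular membrane was extracted, so that any cell adhering to the capsule is included, and fewer cells of a type cannot be told apart from less of a miRNA per cell.

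A miRNA gene is transcribed as part of a longer RNA from which a hairpin is cut, and each side of the hairpin can yield a mature miRNA, the 5p arm and the 3p arm. The mature miRNA recognises its target mRNAs mainly through its seed, bases 2 to 8 from its 5′ end. Members of the miR-15/16 family are known as brakes on cell division, since they lower cyclins, cyclin-dependent kinases, and other drivers of the passage from G1 into S phase. In the lens, cell division is limited to the epithelium that lines the anterior capsule, and cells leave the cycle as they turn into fibres. miR-322 is the rodent counterpart of human miR-424.

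The 5p arms are what makes this a family, and their sequences are shown so that the shared seed, in capitals, can be seen. The sequences are those of RefSeq for the rat assembly GRCr8, in which 12 of the 14 rows were found by name. miR-15a-5p and miR-15a-3p are given here by name only. In the names below, rno marks a rat miRNA.
rno-miR-15b-5p: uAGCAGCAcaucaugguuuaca
rno-miR-16-5p: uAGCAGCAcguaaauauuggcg
rno-miR-195-5p: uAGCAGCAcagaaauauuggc
rno-miR-497-5p: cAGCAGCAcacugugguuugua
rno-miR-322-5p: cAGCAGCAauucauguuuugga
rno-miR-503-5p: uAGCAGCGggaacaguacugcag
rno-miR-322-3p: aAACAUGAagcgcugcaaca

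The seed AGCAGCA was found at bases 2 to 8 of 5 of the 693 rat mature miRNAs with a sequence (0.722%), and all 5 are members. The seed of miR-503-5p differs from it in its last base, so that 6 mature miRNAs share bases 2 to 7. miR-322-3p is printed because it was the most abundant product of its hairpin, and no other of the 693 sequences had its seed AACAUGA. The closest pair was miR-16-5p and miR-195-5p, which were identical at 19 of 21 bases compared and differed by G10A and U11G, counted from the 5′ end of miR-16-5p. Aligned at their 5′ ends, every other pair of the members with a sequence differed at 6 or more bases.

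The 12 rows with a sequence come from 3 clusters. In GRCr8, miR-15b-5p lies at chr2:155555197-155555218 and miR-16-5p at chr2:155555343-155555364 on the plus strand, inside the protein-coding gene Smc4, which encodes a subunit of condensin, the complex that compacts chromosomes for mitosis. The hairpin of miR-497 lies at chr10:55450171-55450239 and that of miR-195 at chr10:55450495-55450581 on the plus strand, 255 bases apart and inside no other annotated gene. The hairpins of miR-503, at chrX:137725856-137725926, and of miR-322, at chrX:137726147-137726241, lie on the minus strand, 220 bases apart and inside the lncRNA gene LOC102550366. The same stretch of the X chromosome carries miR-351, miR-542, miR-450b, and miR-450a further along the strand. In mammals a further copy of miR-16 lies beside miR-15a, and reads of miR-16-5p cannot be assigned to either copy.

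The counts of a library summed to between 1806596 and 2829903 in the control group and to between 663096 and 968151 in the Na2SeO3 group. Fewer reads were thus counted under miRNA names in the Na2SeO3 libraries. The raw reads that the paper lists for these small RNA libraries overlapped between the groups. Why fewer of them were counted in the Na2SeO3 group was not tested. The family took 0.0666% to 0.0679% of the counts in the control libraries and 0.0902% to 0.112% in the Na2SeO3 libraries. Values of single libraries are given in the order of their numbers, 1 to 3, within a group. Levels are given as CPM, the reads of a miRNA relative to the size of its library after TMM scaling, a method that sets the libraries against each other as if most miRNAs were unchanged. The mature members are 20 to 23 bases long, so their levels were compared with no correction for length. Markers of the lens and surface ectoderm were present, with a summed level of 128301 to 143501 CPM in the control group and 74652 to 87357 CPM in the Na2SeO3 group, and 3 of 4 were lower. The muscle markers listed, miR-1-3p, miR-133a-3p, miR-133b-3p, and miR-206-3p, were all counted in every library and 4 of 4 were higher, at 6368 to 8144 CPM against 12835 to 14183 CPM. Outside that list, miR-499-5p, also known from muscle, and miR-1b did not pass (log2 fold changes -0.49 and 0.24, edgeR, adjusted p = 0.068 and 0.273). The red cell markers ran from 254 to 306 CPM and from 403 to 518 CPM, with 1 of 3 tested higher, miR-486 (log2 fold change 1.12), which is also known from muscle, and miR-144-3p at 0 in a library. miR-451-5p, the defining red cell miRNA, did not pass (log2 fold change 0.06, edgeR, adjusted p = 0.833). Of the vessel and mesenchyme markers 2 of 4 were lower, at 51943 to 60430 CPM against 45110 to 51361 CPM, and of the 4 leukocyte markers none passed the test. Of the nerve and glia markers miR-9a-5p and miR-219a-2-3p were higher and miR-124-3p and miR-338-3p did not pass, with overlapping sums of 28099 to 35363 CPM and 34706 to 44702 CPM, and outside that list the neural miR-129-5p was lower (log2 fold change -0.44, edgeR, adjusted p = 0.0356). The liver marker miR-122-5p passed the test as higher, yet its groups overlapped, at 4.65 to 15.5 CPM in the control libraries and 2.91 to 288 CPM in the Na2SeO3 libraries. The part of these cell types in the results below was not tested.

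In the control group the family was led by miR-16-5p, the member studied most as a restraint on cyclins. Its levels were 379, 423, and 483 CPM in the control libraries (mean 429 ± 52.0, SD, n = 3). miR-195-5p followed with 105 ± 7.32 CPM and miR-322-3p with 81.4 ± 5.82 CPM (SD, n = 3 each), and the libraries of these 3 did not overlap with those of the next in order. From miR-195-3p (30.5 ± 10.1 CPM) down to miR-503-5p (4.11 ± 0.64 CPM), each member overlapped with the next. In the Na2SeO3 group miR-322-3p stood above miR-195-5p, whereas in the control group it stood below. Of the reads of the 7 5p arms, miR-16-5p made up 71.9% ± 1.77 in the control group and 78.1% ± 1.21 in the Na2SeO3 group (SD, n = 3 each), and no library of the Na2SeO3 group was as low as any control library.

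**Figure D1:**
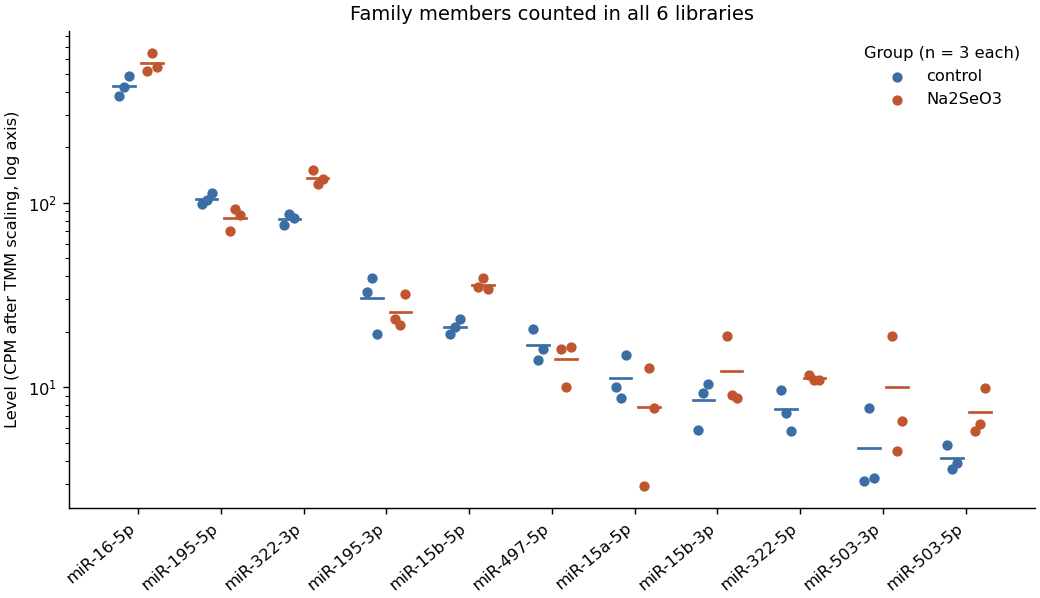
Level of each of the 11 members counted in all 6 libraries, in CPM after TMM scaling on a log axis, with a point for each library and a bar for the group mean (n = 3 per group). miR-16-5p stands highest in both groups. For miR-16-5p, miR-15b-5p, miR-322-3p, miR-322-5p, and miR-503-5p every Na2SeO3 library lies above every control library, and for miR-195-5p below. Of these, miR-322-3p and miR-15b-5p alone passed the test described below.

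Of the 14 rows, 9 had enough reads to be tested in edgeR's quasi-likelihood test over 341 miRNAs. miR-15a-3p and miR-497-3p had no read in any library. This allows a share of up to 0.000106% in the library with the most counts and 0.000452% in that with the fewest, counting error only. miR-16-3p, miR-503-5p, and miR-503-3p had too few reads. Among the 9 tested, 2 rose (miR-15b-5p and miR-322-3p) and none fell at an adjusted p-value of 0.05, where 34.6% of all miRNAs tested passed, 20.8% higher and 13.8% lower in the Na2SeO3 group. None of the 9 was a DEmiRNA, which also needs an absolute log2 fold change above 1 and was reached by 16.4% of all tested, 11.4% higher and 4.99% lower. Before adjustment 3 of the 9 had a p under 0.05, as did 44.3% of all tested, and DESeq2 called miR-322-3p alone. The median log2 fold change of the 9 was 0.42, and that of all 341 was 0.08. In 5 of the 9 the groups did not overlap (4 higher, 1 lower), as in 46.3% of all tested (25.2% higher, 21.1% lower). The share of members called in either direction was thus below that of all tested. The share called higher and the share without overlap were near those of all tested. No member was called lower, and 9 rows are too few to read this as a difference.

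The split of all calls depended on the scale, with 71 higher and 47 lower after TMM scaling, 96 and 30 with library size only, 63 and 57 with the size factors of DESeq2, and 61 and 58 with upper-quartile scaling, all in edgeR. With library size only, the median log2 fold change of all tested moved to 0.27. The log2 fold changes of the 9 members kept their signs under each scaling tried.

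**Figure D2:**
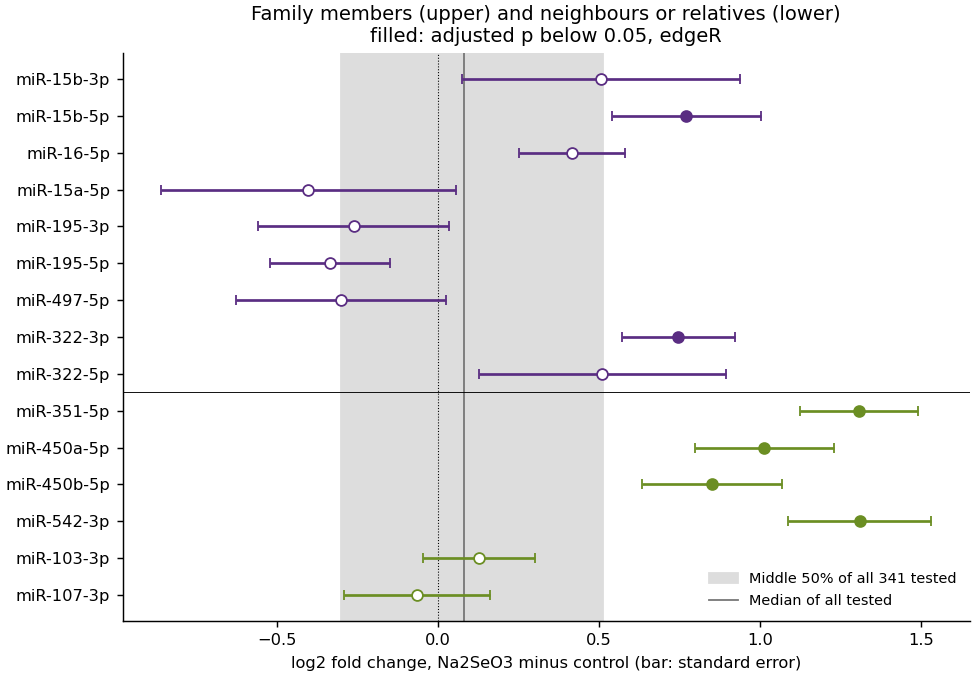
Log2 fold change of the Na2SeO3 group against the control group with its standard error, for the 9 members tested (upper part) and for the tested X-linked neighbours and the relatives miR-103-3p and miR-107-3p (lower part); filled points had an adjusted p below 0.05 (edgeR). The grey band holds the middle of all 341 values, and miR-15b-5p, miR-322-3p, and the 4 X-linked neighbours lie to its right.

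In the miR-15b/miR-16 cluster miR-15b-5p rose in the Na2SeO3 group, and miR-16-5p had a higher level that did not pass the test. miR-15b-5p, which shares its seed with miR-16-5p, was counted 56, 41, and 36 times in the control libraries and 24, 43, and 31 times in the Na2SeO3 libraries. Scaled, these counts were 19.3, 21.2, and 23.3 CPM in the control group and 34.9, 39.0, and 34.1 CPM in the Na2SeO3 group. All 3 Na2SeO3 libraries lay above all 3 control libraries. This was a 1.71-fold rise, or 0.77 ± 0.23 (standard error) on the log2 scale (edgeR, Benjamini-Hochberg adjusted p = 0.0197). The call was lost without control library 1 (adjusted p = 0.0974), without control library 2 (adjusted p = 0.0679), and without Na2SeO3 library 2 (adjusted p = 0.0703, edgeR), as well as with DESeq2 (adjusted p = 0.103) and without the filter on low counts (adjusted p = 0.132).

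miR-16-5p was counted 1099, 819, and 747 times in the control libraries and 356, 714, and 496 times in the Na2SeO3 libraries. Its level in the Na2SeO3 group was 518, 648, and 545 CPM (mean 570 ± 68.4, SD, n = 3), again above every control library. The difference, 0.42 ± 0.17 (standard error) in log2, missed the threshold (edgeR, adjusted p = 0.068). It passed without Na2SeO3 library 1 (adjusted p = 0.0441) and with library size only as the scale (adjusted p = 0.0102, edgeR), and over all alternatives its adjusted p ran from 0.0102 to 0.229. miR-16-5p is also abundant in red cells, of whose 3 tested markers miR-486 alone rose and miR-451-5p had a log2 fold change of 0.06 (edgeR, adjusted p = 0.833). miR-15b-3p had 8 to 18 reads a library and missed the threshold at a log2 fold change of 0.50 (edgeR, adjusted p = 0.411). This value fell to 0.08 without Na2SeO3 library 1. The highest level of miR-15b-3p, 18.9 CPM, was that of Na2SeO3 library 1, the library with the fewest counts, from 13 reads. miR-16-3p had 10, 2, and 4 reads in the control libraries and 0, 2, and 2 in the Na2SeO3 libraries.

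miR-15a-5p, the arm of the remaining locus, was counted 29, 17, and 23 times in the control libraries and 2, 14, and 7 times in the Na2SeO3 libraries. The groups overlapped, and the difference of -0.40 ± 0.46 (standard error) in log2 missed the threshold (edgeR, adjusted p = 0.537). Its size rested on single libraries, at -0.13 without Na2SeO3 library 1, which held 2 reads, and at -1.0 without Na2SeO3 library 2.

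No member of the miR-195/miR-497 cluster passed the test, and the values of all 3 tested were negative. miR-195-5p, which differs from miR-16-5p at only the 2 bases named above, was counted 286, 201, and 175 times in the control libraries and 48, 102, and 78 times in the Na2SeO3 libraries. Its level was 98.7, 104, and 113 CPM in the control libraries and 69.8, 92.5, and 85.7 CPM in the Na2SeO3 libraries. Every Na2SeO3 library lay below every control library, yet the difference of -0.34 ± 0.19 (standard error) in log2 missed the threshold (edgeR, adjusted p = 0.19). The adjusted p ran from 0.0748 to 0.599 over the alternatives, and the difference was smallest, at -0.14, with libraries scaled by size alone. miR-195-3p was at 30.5 ± 10.1 CPM and 25.6 ± 5.45 CPM (SD, n = 3 each), with overlapping groups and a log2 difference of -0.26 (edgeR, adjusted p = 0.536), which was -0.04 without control library 2 and -0.49 without control library 3. miR-497-5p, the arm of the neighbouring hairpin with the same seed, had 60, 27, and 25 reads in the control libraries and 11, 11, and 15 in the Na2SeO3 libraries, with a log2 difference of -0.30 (edgeR, adjusted p = 0.525). That difference was -0.08 without Na2SeO3 library 2 and -0.10 without control library 1, so the size of the values of miR-195-3p and miR-497-5p rested on single libraries.

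In the miR-322/miR-503 cluster on the X chromosome the 3p arm of miR-322 rose, and no other arm passed the test. miR-322-3p was counted 218, 168, and 127 times in the control libraries and 103, 139, and 122 times in the Na2SeO3 libraries. Its level was 75.2, 86.8, and 82.1 CPM in the control libraries and 150, 126, and 134 CPM in the Na2SeO3 libraries. The groups did not overlap, and the rise was 1.68-fold, or 0.75 ± 0.18 (standard error) in log2 (edgeR, adjusted p = 0.00606). It was called in 14 of the 14 alternative fits, with log2 fold changes from 0.65 to 0.94 and adjusted p-values from 9.63e-04 to 0.0386 (edgeR and DESeq2), and glmTreat, whose null is any change up to 1 in log2, called no member. The 4 muscle markers listed were higher in the same libraries, whereas miR-499-5p and miR-1b did not pass, as given above, and the part of muscle in this rise was not tested.

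miR-322-5p, the arm that carries the family seed, had only 28, 14, and 9 reads in the control libraries and 8, 12, and 10 in the Na2SeO3 libraries. Its levels of 5.82 to 9.66 CPM in the control group and 10.9 to 11.6 CPM in the Na2SeO3 group did not overlap, and the difference of 0.51 ± 0.38 (standard error) in log2 missed the threshold (edgeR, adjusted p = 0.347). miR-503-5p, a seed relative known to restrain the G1 cyclins, had 14, 7, and 6 reads and 4, 7, and 9 reads, which gave 3.62 to 4.83 CPM and 5.82 to 9.89 CPM without overlap. Tested without the filter over 725 names, its log2 difference was 0.74 ± 0.55 (standard error; edgeR, adjusted p = 0.438), and that of miR-503-3p was 0.97 ± 0.70 (adjusted p = 0.417). The highest value of miR-503-3p, 18.9 CPM, was again that of Na2SeO3 library 1, from 13 reads. These 3 arms had 4 to 28 reads a library.

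The use of the hairpin arms did not separate the groups in any hairpin. Of the reads of the miR-322 hairpin, 91.4% ± 2.50 were 3p in the control group and 92.4% ± 0.37 in the Na2SeO3 group (SD, n = 3 each), so that the seed-bearing 5p arm was the minor one. The lowest share, in control library 1, was 88.6% (95% exact binomial interval 84.0% to 92.3%, which covers counting error only). In the other hairpins of the family with both arms counted in every library, the 3p arm made up 28.2% ± 4.25 and 24.8% ± 8.95 for miR-15b, 22.3% ± 6.79 and 23.7% ± 4.18 for miR-195, and 50.9% ± 15.3 and 52.7% ± 20.6 for miR-503 in the control and Na2SeO3 groups (SD, n = 3 each). The 3p arm of miR-16 made up at most 0.902% in a library.

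Summed over both arms, the miR-15b/miR-16 cluster stood at 461 ± 55.9 CPM in the control group and 620 ± 67.9 CPM in the Na2SeO3 group (SD, n = 3 each), and the miR-322/miR-503 cluster at 97.8 ± 6.72 and 165 ± 19.4 CPM. The miR-195/miR-497 cluster stood at 153 ± 4.21 and 122 ± 12.6 CPM. Shares of the family's reads compare the clusters within a library and do not depend on the scaling between libraries. By share, miR-195/miR-497 went from 21.2% ± 1.95 to 13.4% ± 1.39 and miR-322/miR-503 from 13.6% ± 1.21 to 18.2% ± 3.18, both without overlap. The share of miR-15b/miR-16, 63.6% ± 2.75 and 67.6% ± 2.96 (SD, n = 3 each), overlapped. These sums are a description and were not tested.

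**Figure D3:**
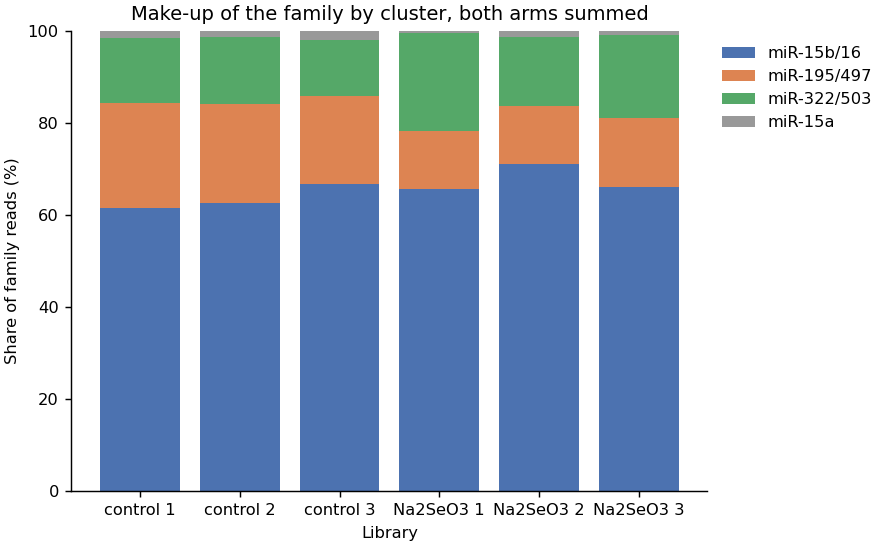
Share of the family's reads in each library that belonged to each cluster, in percent, with both arms summed and 1 bar per library. The miR-195/miR-497 part is at least 19.1% in every control library and lower in every Na2SeO3 library, down to 12.5%.

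For single members, 10 ratios within a library were compared by exact permutation (two-sided), where groups of 3 allow no p below 0.1. The ratio of miR-16-5p to miR-195-5p had a log2 value of 1.94, 2.02, and 2.09 in the control libraries and of 2.88, 2.80, and 2.66 in the Na2SeO3 libraries. All Na2SeO3 libraries lay above all control libraries, and miR-16-5p went from 4.05 to 6.87 reads for each read of miR-195-5p (exact permutation test, p = 0.1, the smallest possible; adjusted p = 0.333 over 10 ratios). The log2 ratio of miR-322-5p to miR-195-5p rested on few reads and went from -3.78 ± 0.44 to -2.82 ± 0.27 (SD, n = 3 each; exact permutation test, p = 0.1, adjusted p = 0.333). With miR-322-3p in its place, chosen after seeing the data, it went from -0.37 ± 0.10 to 0.73 ± 0.33 (SD, n = 3 each), also without overlap. Within the miR-15b/miR-16 cluster, the log2 ratio of miR-15b-5p to miR-16-5p went from -4.31 ± 0.04 to -3.96 ± 0.09 (SD, n = 3 each; exact permutation test, p = 0.1, adjusted p = 0.333). In the other 7 ratios the groups overlapped, with exact p-values from 0.5 to 0.9, among them miR-195-5p to miR-497-5p and miR-322-5p to miR-503-5p, the 5p arms of neighbouring hairpins.

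**Figure D4:**
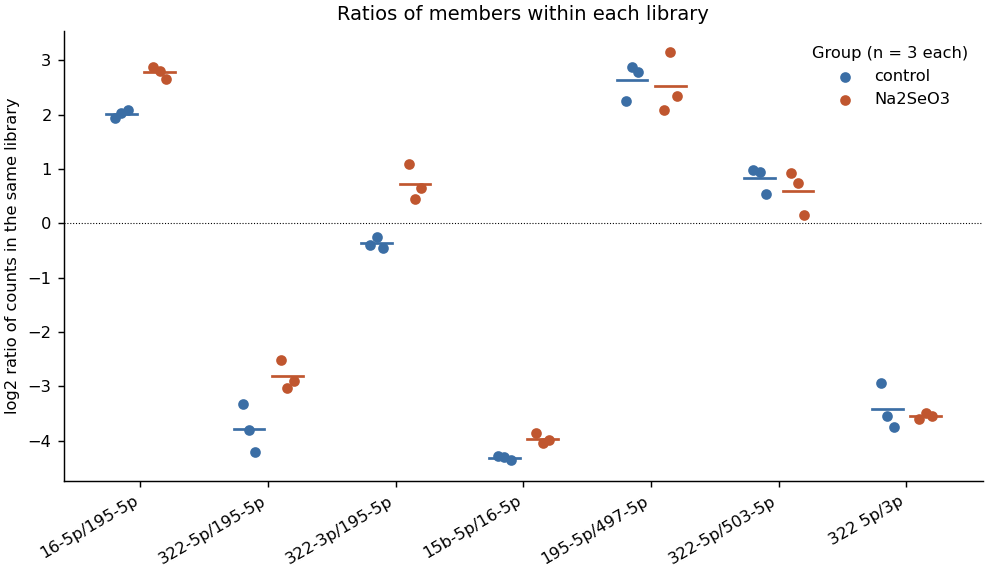
Log2 ratio of the counts of a pair of arms in the same library, with a point for each library and a bar for the group mean (n = 3 per group). The ratios of miR-16-5p, miR-322-5p, and miR-322-3p to miR-195-5p and of miR-15b-5p to miR-16-5p are higher in every Na2SeO3 library, whereas the other 3 overlap.

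The neighbours of miR-322/miR-503 on the X chromosome were also higher. All 4 of the arms of miR-351, miR-542, miR-450a, and miR-450b with enough reads to be tested (of 8 listed) rose, and 3 were DEmiRNAs, against 11.4% of all tested that were DEmiRNAs with a higher level. miR-351-5p, which shares its seed with miR-125a-5p and miR-125b-5p rather than with the family, went from 40.7, 40.8, and 40.7 CPM in the control libraries to 105, 95.2, and 103 CPM in the Na2SeO3 libraries. This was a difference of 1.31 ± 0.18 (standard error) in log2 (edgeR, adjusted p = 1.55e-04). miR-542-3p stood at 63.7 ± 7.40 and 157 ± 45.6 CPM (SD, n = 3 each), 1.31 apart in log2 (edgeR, adjusted p = 6.61e-04). miR-450a-5p stood at 302 ± 34.1 and 608 ± 204 CPM (SD, n = 3 each), 1.01 apart in log2 (edgeR, adjusted p = 0.00335). In 10 of 14 alternative fits it passed the test without reaching a log2 fold change of 1, so that it was no DEmiRNA there. Its log2 difference was 0.69 without Na2SeO3 library 2, the highest of the 3 at 843 CPM. miR-450b-5p, at a log2 difference of 0.85 (edgeR, adjusted p = 0.00902), lost its call without any 1 of the control libraries (adjusted p = 0.0554 to 0.0749, edgeR) and without the filter (adjusted p = 0.0556). Its size rested on Na2SeO3 library 2, the highest of the 3 at 506 CPM, and was 0.53 in log2 without it. It differs from miR-450a-5p by G21A alone over the bases compared, so the division of reads between this pair is uncertain.

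**Figure D5:**
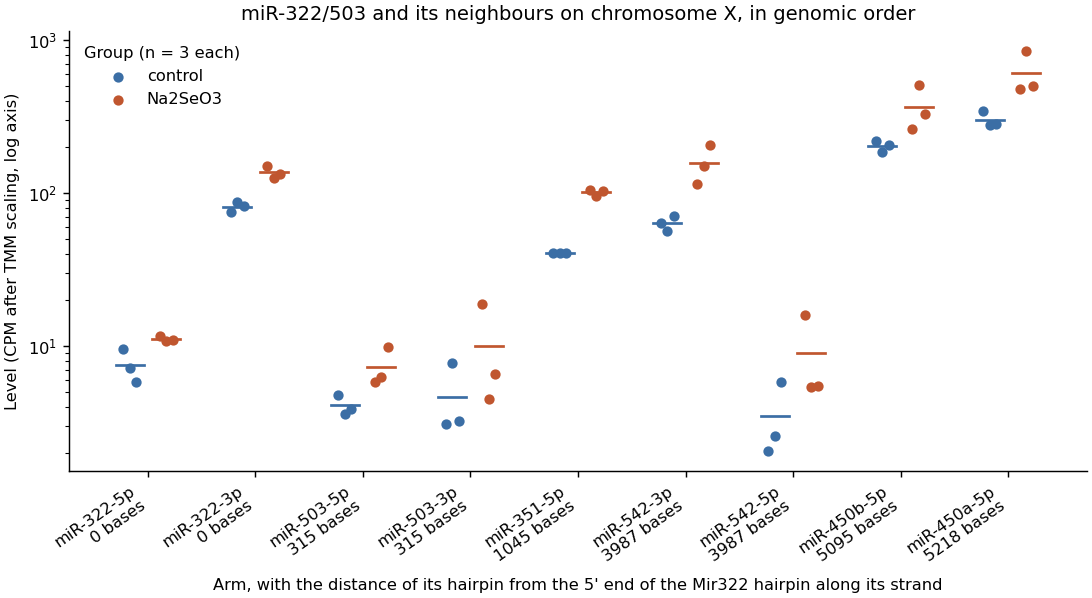
Level of the arms of miR-322 and miR-503 and of their X-linked neighbours that were counted in all 6 libraries, miR-450b-3p left out, in CPM after TMM scaling on a log axis, ordered by the distance of the hairpin from the 5′ end of the miR-322 hairpin, with a point for each library and a bar for the group mean (n = 3 per group). The arm left out had 1 to 5 reads a library, and its groups overlapped. For miR-322-3p, miR-351-5p, miR-542-3p, miR-450b-5p, and miR-450a-5p every Na2SeO3 library stands above every control library. The same holds for miR-322-5p and miR-503-5p, which had few reads, whereas miR-503-3p and miR-542-5p overlap.

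Along the stretch, miR-322-3p and miR-351-5p differed in the size of their change. The log2 ratio of miR-322-3p to miR-351-5p in the same library was 0.88, 1.08, and 1.01 in the control libraries and 0.51, 0.40, and 0.37 in the Na2SeO3 libraries, which did not overlap. The ratios of miR-322-3p to miR-542-3p and to miR-450a-5p overlapped. These ratios were chosen after seeing the data and were not tested.

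miR-103-3p and miR-107-3p carry the letters AGCAGCA from base 1 rather than from base 2, and are grouped with the family for that reason. They did not pass the test. miR-103-3p stood at 1238 ± 267 and 1351 ± 48.5 CPM (SD, n = 3 each; log2 difference 0.13 ± 0.17, standard error; edgeR, adjusted p = 0.628), above miR-16-5p in both groups. The difference of miR-103-3p ran from 0.0018 without control library 1 to 0.33 with libraries scaled by size alone. miR-107-3p stood at 120 ± 21.1 and 113 ± 34.7 CPM (SD, n = 3 each; log2 fold change -0.07, adjusted p = 0.847), and its sign turned positive, to 0.14, when libraries were scaled by size alone.

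Other miRNAs known for acting on cell division were taken from lists. Of 14 tested miRNAs listed as promoting proliferation, among them miR-17-5p, miR-106b-5p, miR-221-3p, miR-222-3p, and miR-21-5p, 2 rose and 3 fell, with a median log2 fold change of 0.00. These 5 of 14 are 35.7%, near the 34.6% called over all miRNAs tested. Those that rose were miR-25-3p (log2 fold change 0.91) and miR-106b-3p (0.71), and those that fell were miR-222-3p (-0.81), miR-221-3p (-0.60), and miR-21-5p (-0.52). The list of let-7, miR-98, and miR-34 arms, families whose 5p arms are known to restrain the cell cycle, had 18 distinct rows tested, with let-7a-1-3p and let-7c-2-3p, which hold identical counts, taken as 1. Of these, 2 rose (11.1%), miR-98-3p (log2 fold change 1.60) and let-7d-3p (0.62), both 3p arms without the let-7 seed. None fell in edgeR, where 5 had an unadjusted p below 0.05, and none of the 11 5p arms was called. Their median was 0.04.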

How the data were processed

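Small RNA from lens capsules of 3 control and 3 Na2SeO3 rats was analysed. Adapters and low-quality bases were removed by the authors (Cutadapt, Fqtrim; quality checked in FastQC), who then used miRDeep and HISAT2 with the Ensembl genome and deposited raw counts per miRNA name, without pooling; versions and build are not given in the sources used here. The labels do not say whether pups shared a litter, and no batch is given. Library totals ran from 663096 to 2829903, with a floor of 3 counts in a library (1.04 to 4.36 CPM), counting error only. The chi-square of each pair of libraries was at least 27.9 times its degrees of freedom, so no library was a copy.

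Names were filtered with filterByExpr (minimum count 10), scaled with TMM, and tested by the quasi-likelihood method of edgeR, adjusted by Benjamini-Hochberg over 341 names. The method was also run on simulated data, in which the planted changes were larger than that of any member. That run does not speak to changes of the members' size. P-values measure the spread between these rats. DEmiRNAs had an adjusted p-value below 0.05 and an absolute log2 fold change above 1. Standard errors came from the F statistic, log2 CPM used a prior count of 2, and ratios within a library used counts plus 0.5. Named were all 14 rows, the tested neighbours and relatives, and the 3 miRNAs most like each cluster; miRNAs named from other lists were chosen after their values were seen. The members and lists were chosen with earlier results of these data known. Among the tested rows, 4 in 2 pairs carried identical counts in every library, and none of them was a member. Alternatives were other scalings, filters, tests, a replicate block, rat names only, and each library left out. The tools were edgeR 4.0.16, DESeq2 1.42.0, and limma 3.58.1 in R 4.3.3.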

Additional observations from a re-analysis of the deposited data

How the results depend on the processing

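The number of members that rose at an adjusted p of 0.05 was 2, and it was 1 without the filter on low counts, with DESeq2, and with the replicate block; it ran from 1 to 3 with each library left out. No member fell and none was a DEmiRNA under any alternative fit. With library size only, the log2 differences of the cluster sums moved to 0.62 for miR-15b/miR-16, -0.13 for miR-195/miR-497, and 0.95 for miR-322/miR-503, and with each library left out they stayed between 0.34 and 0.52, -0.39 and -0.27, and 0.64 and 0.83. Libraries with the same replicate number come from different animals, and their deviations correlated at -0.17, -0.18, and -0.26, so the numbers were not taken as pairs; with the replicate block 55 names rose and 42 fell, and of the members only miR-322-3p was called, with miR-15b-5p at an adjusted p of 0.0562 (edgeR).

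Leaving out a library turned the sign of some group differences in log2 ratios that overlapped: miR-195-5p/miR-497-5p ran from -0.42 to 0.11, miR-322-5p/miR-503-5p from -0.38 to 0.00276, miR-322-5p/miR-16-5p from -0.0517 to 0.46, and the 5p/3p ratios from -0.38 to 0.19 for miR-195, from -0.30 to 0.10 for miR-322, and from -0.62 to 0.56 for miR-503. The 5p/3p ratio of miR-15b ran from 0.04 to 0.64. The 3 ratios without overlap kept their direction, at 0.31 to 0.39 for miR-15b-5p/miR-16-5p, 0.71 to 0.82 for miR-16-5p/miR-195-5p, and 0.75 to 1.19 for miR-322-5p/miR-195-5p. The log2 fold change of miR-107-3p turned to 0.14 with library size only, and ran from -0.34 to 0.0657 with each library left out (0.06, 0.0657, and 0.0058 without control library 3, Na2SeO3 library 1, and Na2SeO3 library 3). The cause of these changes was not tested. Counts of 0 to 29 a library limit miR-15a-5p, miR-15b-3p, miR-16-3p, miR-322-5p, miR-503-5p, and miR-503-3p.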

Other observations

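The rat miRNAs outside the family whose log2 CPM followed each cluster's summed level most closely over the 6 libraries were miR-206-3p, miR-323-3p, and miR-409a-3p for miR-322/miR-503 (Pearson's r of 0.998, 0.990, and 0.990), miR-582-3p, miR-672-5p, and miR-31a-5p for miR-195/miR-497 (0.967, 0.966, and 0.957), and miR-411-3p, miR-466c-5p, and miR-133a-3p for miR-15b/miR-16 (0.965, 0.963, and 0.943). These are the highest values among all tested rat miRNAs, and the points share the 2 groups, the depth, and the scaling, so they are given as a description.

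The table also lists a row under a human name, hsa-miR-16-1-3p, which the family's rat names do not cover. It had 37, 11, and 0 reads in control libraries 1 to 3 and 0 in each Na2SeO3 library, and it was singled out after its values were seen.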
